A study of Homo sapiens with 2 samples.

Results

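The 10 genes described here belong to the BCL2 family and were taken by symbol from a table of 19220 genes: BCL2, BCL2L1, MCL1, BCL2A1, BAK1, BCL2L11, BID, BAD, BIK and BMF. All 10 symbols were in the table, and 9 of them reached the minimum of 100 counts summed over both libraries that defined a measured gene. BIK did not. The poly(A) RNA came from H9, an established human T cell lymphoma line with a genotype labelled WT. There was 1 library of cells kept with doxorubicin at 0.05 µM for 6 h and 1 library of untreated cells, labelled doxorubicin for 0 hour. No untreated library was taken at 6 h, so differences due to the drug and to time in culture cannot be told apart. Doxorubicin is an anthracycline drug, a poison of topoisomerase II that leaves breaks in DNA. All cells were of this single line, and with 1 library per condition there was no test between conditions, so each difference below compares 2 libraries and each interval covers counting error only.

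BCL2 family proteins decide whether the outer membrane of the mitochondrion stays closed. The survival proteins hold pore-forming effectors such as BAK1 in check, and BH3-only proteins bind the survival proteins through a short helix, the BH3 motif, or engage the effectors directly. When BAK1 or BAX assembles into pores, cytochrome c leaves the mitochondrion and caspases are activated. In T cells BCL2L1, MCL1 and BCL2 maintain survival at different stages, and BCL2L11 is the main BH3-only protein that limits lymphocyte numbers.

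BH3-only proteins bind survival proteins through the BH3 motif, and some survival genes encode a stretch of like pattern. The coding stretches of 4 members are shown. They are the BH3-only genes with the highest and the lowest ratio here, and the survival genes with the highest levels. In GENCODE release 29 transcripts (GRCh38), 9 of the 10 members encoded exactly 1 match to a pattern of leucine, any 3 residues, glycine, alanine or serine, aspartate, any residue, and phenylalanine, isoleucine, methionine or valine. BCL2A1 had 0 matches. The 24 bases that encode the pattern are in capitals, with 18 coding bases on either side, read 5′ to 3′ on the coding strand.
BCL2L11: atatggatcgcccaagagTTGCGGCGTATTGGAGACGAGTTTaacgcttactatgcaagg
BAD: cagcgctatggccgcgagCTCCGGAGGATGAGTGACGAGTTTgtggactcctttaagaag
BCL2L1: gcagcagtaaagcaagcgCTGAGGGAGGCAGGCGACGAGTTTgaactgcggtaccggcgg
MCL1: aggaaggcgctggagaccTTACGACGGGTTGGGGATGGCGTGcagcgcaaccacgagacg
Of the 24 pattern bases of BCL2L11, 17 were identical in BAD, 15 in BCL2L1 and 14 in MCL1. Whether these identities bear on binding was not tested. These stretches lie on chromosomes 2, 11, 20 and 1, in the order shown.

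The doxorubicin library summed to 50174434 counts and the untreated library to 33730703. Of 10 T cell markers, 8 were measured, while CD2 and CD7 had 2 and 16 counts over both libraries. The summed T cell markers stood at 1329 CPM (counts per 1000000 TMM-scaled counts) with doxorubicin and 1276 CPM untreated, a sum over members of either sign: CD3G was at a log2 ratio of 1.11 and LCK at 0.48, but CD3D at -0.58 and CD3E at -0.33. The B cell markers summed to 150.2 CPM with doxorubicin and 206 CPM untreated, with CD79A and CD79B measured and PAX5 at 0 counts. EPCAM and COL1A1 were measured too, and the epithelial and fibroblast markers summed to 69.5 CPM with doxorubicin and 84.2 CPM untreated. The myeloid markers summed to 0.311 CPM with doxorubicin and 0.304 CPM untreated, and the natural killer markers to 0.0195 CPM with doxorubicin and 0.0607 CPM untreated. Markers of pluripotent stem cells were included because a stem cell line is also called H9. They summed to 2.18 CPM with doxorubicin and 3.25 CPM untreated. Of these, POU5F1 was measured, at 2.14 CPM with doxorubicin and 3.19 CPM untreated, and NANOG had 0 counts. The part of these markers in the results below was not tested.

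After doxorubicin the balance within the family lay further towards BCL2L11, which encodes BIM. BCL2L11 mRNA was 1.49-fold higher (95% counting interval 1.44 to 1.55), the highest ratio of the 10 members. BAD mRNA was 1.66-fold lower (1.53 to 1.80) before adjustment, the lowest ratio. Adjusted for the trend of ratios with transcript length, BAD was at a log2 ratio of -0.27, and adjusted for length and GC content it was at -0.05 (-0.17 to 0.07), while BCL2L11 was at 0.39 and 0.57. The 3 abundant survival genes BCL2L1, MCL1 and BCL2 were between 1.13-fold lower and 1.09-fold higher. Fewer cells that hold an mRNA and less of that mRNA per cell cannot be told apart in such bulk RNA.

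A call of higher or lower needed a change of 1.5-fold or more and a counting interval that left out a ratio of 1. By this rule 1 of the 9 measured members, BAD, was lower and 0 were higher, and BCL2L11 lay just below the limit. After either adjustment 0 members were lower and 0 higher. Among the 11244 measured genes, 7.26% were higher and 9.57% lower, so the members' count does not set them apart from the table. Of the calls over all measured genes 43.1% were higher, and under total-count scaling, with 1084 higher and 852 lower, 56.0% were. Under that scaling BCL2L11 passed the rule, with a log2 ratio of 0.65. The median log2 ratio was -0.04 over the measured members and 0.01 over all measured genes.

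**Figure D1:**
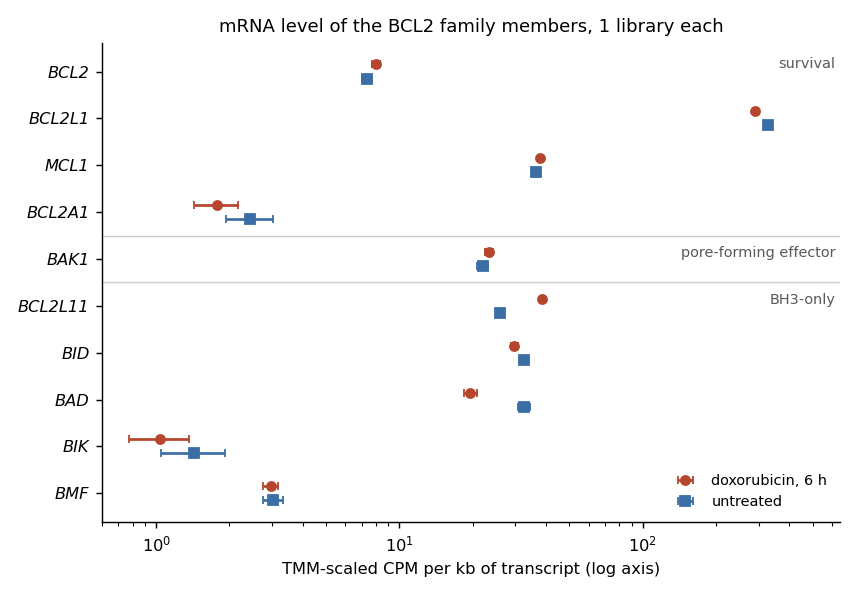
Level of each member in TMM-scaled CPM per kilobase of transcript (log axis) with doxorubicin (red circles) and untreated (blue squares), with 95% counting intervals from 1 library each. BCL2L1 stands at 289 with doxorubicin and 326 untreated, far to the right of the other members, while BCL2L11 and BAD show the widest gaps among the members above 10.

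Among the survival genes, BCL2L1 dominated in both libraries. It encodes BCL-XL, together with a short isoform of opposite action that gene counts do not separate. BCL2L1 had 38696 counts with doxorubicin and 28046 untreated, which at the 2 depths is 753 CPM with doxorubicin and 851 CPM untreated. Its level per kilobase was higher than that of 98.6% of measured genes with doxorubicin and 98.4% untreated. The log2 ratio was -0.18 (-0.20 to -0.15), a difference small in size but outside counting error. An antisense gene, ABALON, is annotated over 43.0% of the exons of BCL2L1, and with the strand setting of the counts unstated in the sources used here, reads of the 2 genes cannot be told apart.

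MCL1, a survival protein of rapid turnover, had 7649 counts with doxorubicin and 4710 untreated. Its level was 37.9 CPM per kilobase (37.0 to 38.7) with doxorubicin and 36.4 (35.3 to 37.4) untreated, intervals that overlap. The log2 ratio was 0.06 (0.01 to 0.11). BCL2, the founding member of the family, had 3075 counts with doxorubicin and 1804 untreated, or 8.02 CPM per kilobase with doxorubicin and 7.34 untreated. Its log2 ratio was 0.13 (0.04 to 0.21), and for both genes the sign was the opposite after adjustment for transcript length (-0.03 for MCL1 and -0.16 for BCL2). BCL2A1, an NF-kappaB target in lymphocytes, was scarce, with 94 counts with doxorubicin and 83 untreated. Its log2 ratio of -0.46 had a counting interval of -0.90 to -0.02, so the size of the difference is poorly fixed at this depth, and after adjustment for length it was 0.06.

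BAK1 was the only pore-forming effector among the members. It had 2563 counts with doxorubicin and 1548 untreated, or 23.4 CPM per kilobase with doxorubicin and 22.0 untreated. The log2 ratio of 0.09 had an interval that included 0 (-0.01 to 0.18). Of its sampled stretches of 50 bases, 11.9% are shared with the pseudogene BAK1P1.

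The BH3-only genes did not move together. BCL2L11 encodes BIM, which binds all main survival proteins and can engage BAX and BAK1. It had 10390 counts with doxorubicin and 4461 untreated, or 202 CPM with doxorubicin and 135 CPM untreated. The log2 ratio was 0.58 (0.53 to 0.63), and 839 of the 11244 measured genes had a higher one. Per kilobase BCL2L11 stood at 38.7 with doxorubicin and 25.9 untreated, so that it ranked 2nd among the members with doxorubicin and 5th untreated. The gene MIR4435-2HG lies on the opposite strand over 10.9% of the exons of BCL2L11 and is not among the symbols analysed here.

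BAD, whose protein binds BCL-XL and BCL2 and is held inactive by phosphorylation and 14-3-3 proteins, had 1164 counts with doxorubicin and 1239 untreated, although the doxorubicin library was the deeper one. These counts are 22.7 CPM with doxorubicin and 37.6 CPM untreated. The log2 ratio was -0.73 (-0.85 to -0.61), and 5.58% of measured genes had a lower one. BAD was not past the limit after lowess, at -0.27, or after splines, at -0.05 with an interval that included 0. GPR137 runs over 23.7% of the exons of BAD on the other strand and had a log2 ratio of -0.27, from 1039 counts with doxorubicin and 802 untreated.

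BID, which links death receptors to mitochondria after cleavage by caspase-8, had 3806 counts with doxorubicin and 2663 untreated, at a log2 ratio of -0.13 (-0.20 to -0.05). BMF, which is tethered to the cytoskeleton through dynein light chains, had 712 counts with doxorubicin and 468 untreated. Its log2 ratio of -0.04 (-0.21 to 0.14) has no settled sign, since it was 0.03 under total-count scaling. BIK, a BH3-only protein of the endoplasmic reticulum, had 51 counts with doxorubicin and 45 untreated and stayed below the count minimum. Its log2 ratio was -0.46 (-1.07 to 0.15), which leaves any difference inside that interval not detectable from so few counts.

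**Figure D2:**
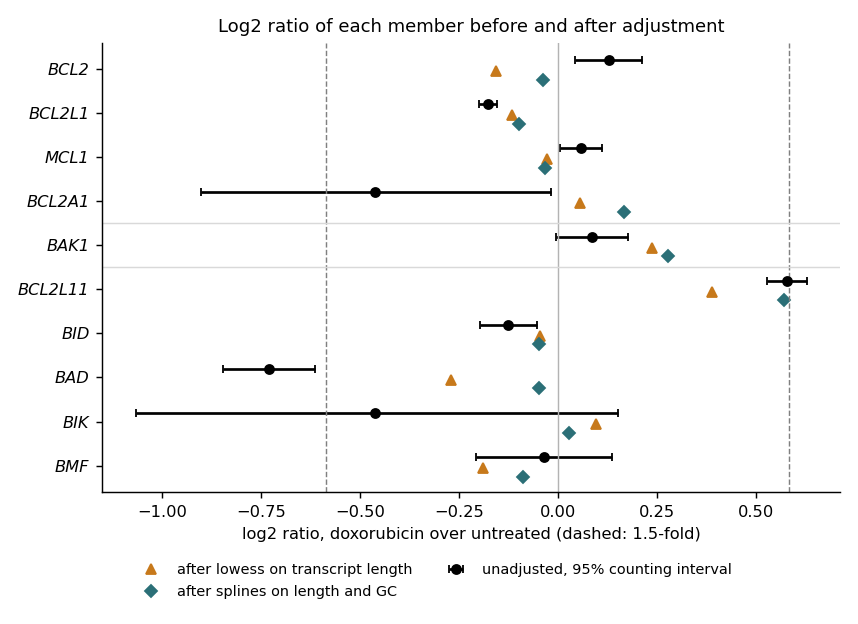
Log2 ratio of doxorubicin over untreated for each member, unadjusted with its 95% counting interval (black circles) and after adjustment by a lowess curve on transcript length (orange triangles) or by splines on transcript length, coding length and GC content (green diamonds). BAD lies left of the dashed 1.5-fold line before adjustment at -0.73 and is at -0.27 after lowess and -0.05 after splines, while BCL2L11 is at 0.58 unadjusted, 0.39 after lowess and 0.57 after splines.

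The order of the members by level per kilobase was the same at its top and bottom in both libraries. BCL2L1 was first and BIK last, with BCL2 seventh, BMF eighth and BCL2A1 ninth. Scaled by transcript length, BCL2L1 exceeded the next member 7.46-fold with doxorubicin and 8.97-fold untreated. With doxorubicin the order from the second place was BCL2L11, MCL1, BID, BAK1 and BAD, and only the counting intervals of BCL2L11 and MCL1 overlapped between neighbours. Untreated, it was MCL1, BAD, BID, BCL2L11 and BAK1, and the intervals of BAD and BID, and of BMF and BCL2A1, overlapped. The length used matters for this order and for the lead of BCL2L1. With coding length, BCL2L1 held 55.2% of the family with doxorubicin and 61.3% untreated. BCL2L11 then held 20.1% with doxorubicin and 13.2% untreated. With transcript length, BCL2L1 held 63.9% with doxorubicin and 66.6% untreated, and BCL2L11 8.56% and 5.29%. With coding length or with median transcript length, BCL2L11 was second in both libraries. The transcript length used for BCL2L11 was 5231 bases, its median transcript length is 883 and its coding length 516.

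Ratios across the whole table went with transcript length, and the members span that range. Spearman's rho between transcript length and log2 ratio was 0.55 across 11042 measured genes, which are not independent replicates. It was 0.15 when each gene was given the median length of its transcripts. In the shortest class of 2209 genes, 30.0% were lower and 1.54% higher, and in the longest class of 2209 genes, 18.2% were higher and 1.58% lower. BAD, BIK and BCL2A1, with transcripts of 1157, 953 and 1033 bases, are in the shortest class. BCL2, with 7461 bases, is in the longest.

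Set beside genes within 10% of its transcript length, BCL2L11 remained towards the top and BAD moved nearer the middle. Of 999 genes of similar length, 90.9% had a lower ratio than BCL2L11, and their median log2 ratio was 0.21. Of 367 genes as short as BAD, 20.2% had a lower ratio than BAD, and their median was -0.44. BAK1 had a higher ratio than 76.7% of 1052 genes of similar length, whose median was -0.15. For MCL1 that share was 49.6% and for BID 44.0%, near the middle of their length class. It was 35.8% for BCL2L1, 29.4% for BCL2 and 25.5% for BMF, below the middle.

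**Figure D3:**
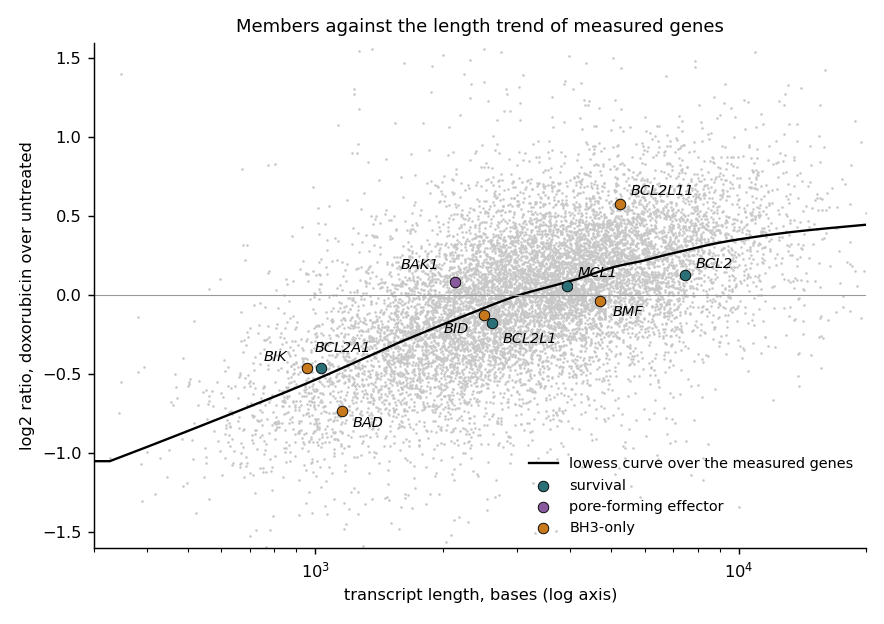
Log2 ratio of doxorubicin over untreated against transcript length (log axis) for measured genes (grey), with the lowess curve over them and the members coloured by role; 42 genes lie outside the axes. BCL2L11 lies above the curve by 0.39 and BAD below it by 0.27, while MCL1, BID, BIK and BCL2A1 lie close to it.

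After the lowess curve on transcript length was subtracted, BCL2L11 was at a log2 ratio of 0.39 (0.34 to 0.44), BAK1 at 0.24 (0.15 to 0.33) and BAD at -0.27 (-0.39 to -0.15). BCL2L1 at -0.12 (-0.14 to -0.09), BCL2 at -0.16 (-0.24 to -0.07) and BMF at -0.19 (-0.36 to -0.02) also had lowess intervals below 0. After splines BMF was at -0.09 (-0.26 to 0.08). Splines on transcript length, coding length and GC content left BCL2L11 at 0.57 (0.52 to 0.62), BAK1 at 0.28 (0.19 to 0.37) and BAD at -0.05 (-0.17 to 0.07). BAD has the highest GC content of the members, 66.3%. With splines BCL2L11 was above 95.6% of the genes adjusted in the same way and BAK1 above 83.3%. No member passed the 1.5-fold rule after either adjustment, where 4.88% (lowess) or 4.06% (splines) of all genes were higher and 4.66% or 3.58% lower.

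Ratios between members within a library do not depend on how the 2 libraries are scaled, but they do carry the trend with transcript length. Of the 45 pairs of members, 13 differed at least 1.5-fold between the libraries with a counting interval that excluded 1. Of these 13, 11 held BCL2L11 or BAD, which follows in part from their having the highest and the lowest ratio. The other 2 pairs set BCL2 against the scarce BCL2A1 and BIK. The share of such pairs over all measured genes was not computed, so the count of pairs does not set the members apart. BCL2L11 had 8.93 counts for each count of BAD with doxorubicin and 3.60 untreated, 2.48 times as many (2.27 to 2.71). After lowess this factor was 1.58 (1.45 to 1.73) and after splines 1.54 (1.41 to 1.68). Against BCL2L1, the ratio of BCL2L11 was 0.269 with doxorubicin and 0.159 untreated, 1.69 times as high (1.62 to 1.75). Against MCL1 it was 1.36 with doxorubicin and 0.947 untreated, 1.43 times as high (1.36 to 1.51), so BCL2L11 had more counts than MCL1 in the doxorubicin library alone. After lowess 1 of the 45 pairs remained at least 1.5-fold apart, BCL2L11 and BAD. After splines there were 6, and all 6 held BCL2L11, which follows in part from its having the highest ratio after both adjustments.

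For every 100 counts of the 4 survival genes there were 21.0 counts of BCL2L11 with doxorubicin and 12.9 untreated, 1.63 times as many (1.57 to 1.69). For BAD there were 2.35 with doxorubicin and 3.58 untreated, 0.657 times as many (0.606 to 0.713). After splines BAD, at -0.05, lay level with BCL2L1 at -0.10, MCL1 at -0.03 and BCL2 at -0.04, so the lower share of BAD was not seen after that adjustment. After lowess BAD was still lower relative to MCL1, by a factor of 1.18 (1.08 to 1.29), and to BCL2L1, by 1.11 (1.03 to 1.21). Against BCL2 and BCL2A1 the intervals after lowess included 1. The 5 BH3-only genes together had 32.6 counts per 100 survival counts with doxorubicin and 25.6 untreated. Scaled by transcript length this difference was smaller, at 27.3 with doxorubicin and 25.6 untreated, 1.07 times as high, because the long BCL2L11 transcript then weighs less and the short BAD transcript more. With coding length it was 43.4 with doxorubicin and 33.3 untreated.

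Of all counts of the 10 members, the survival genes held 72.6% (72.3 to 72.9, exact binomial) with doxorubicin and 76.9% (76.5 to 77.3) untreated. BCL2L1 alone held 56.7% with doxorubicin and 62.2% untreated, and BCL2L11 held 15.2% with doxorubicin and 9.90% untreated. Scaled by transcript length the survival share was 74.5% with doxorubicin and 76.0% untreated. The family as a whole was at 1328 CPM with doxorubicin and 1368 CPM untreated, so its total was close in the 2 libraries while its make-up differed.

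**Figure D4:**
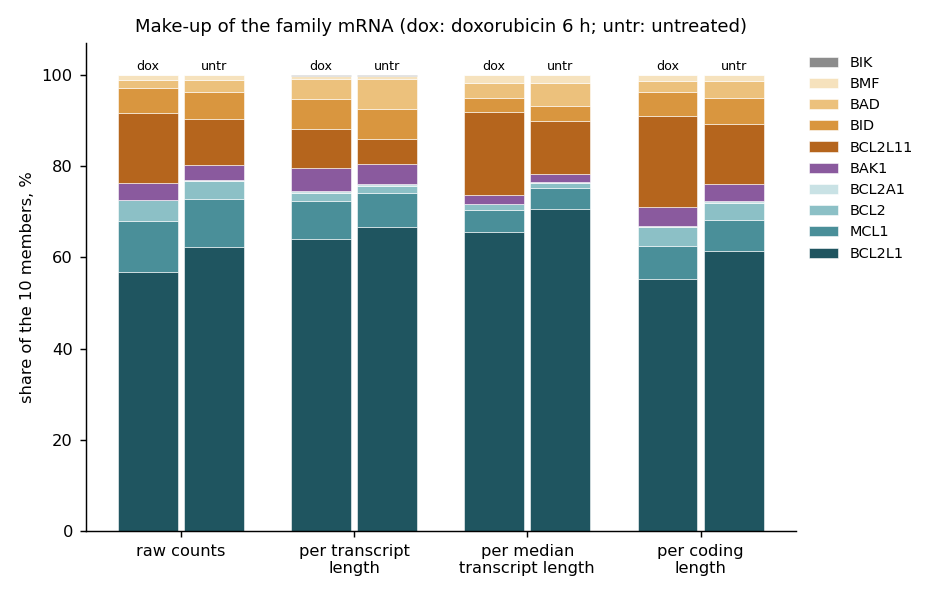
Share of each member in the summed mRNA of the 10 members with doxorubicin (left bar of each pair) and untreated (right bar), from raw counts and from counts divided by transcript length, median transcript length or coding length. The BCL2L11 segment is larger with doxorubicin under each length, at 15.2% against 9.90% for raw counts, and the BAD segment is smaller; none of these bars is adjusted for the trend of ratios with length.

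Other genes of the pathway were taken from 4 lists. Over all measured genes 7.26% were higher and 9.57% lower, and with so few genes per list the counts below do not set the lists apart. Of 17 other BCL2 family genes 10 were measured, and 1 was lower, 0 were higher and 9 were neither. The median log2 ratio of this list was -0.25, against 0.01 over all measured genes, and its median transcript length was 2030 bases against 3265. BBC3, which encodes the p53-induced BH3-only protein PUMA, was 1.82-fold lower (1.71 to 1.92), from 2173 counts with doxorubicin and 2530 untreated. Its log2 ratio was -0.64 after lowess and -0.24 after splines, below the limit in the second case. PMAIP1, which encodes the MCL1-binding protein NOXA, had 5647 counts with doxorubicin and 4493 untreated, at a log2 ratio of -0.31 (-0.37 to -0.25). BAX, the effector that pairs with BAK1, had 1953 counts with doxorubicin and 1527 untreated, at -0.29 (-0.38 to -0.19). After lowess BAX was at 0.09 and PMAIP1 at -0.11, and after splines they were at 0.05 and 0.23. BNIP2, which binds BCL2, was at -0.09 (-0.16 to -0.02), and at -0.33 after lowess and -0.18 after splines.

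Among mitochondrial outer membrane partners and released proteins, 1 of 11 measured genes was lower and 0 were higher, with a median log2 ratio of -0.19. CYCS, which encodes cytochrome c, was lower, at a log2 ratio of -0.62 (-0.66 to -0.59), from 13498 counts with doxorubicin and 13319 untreated. It was at -0.72 after lowess and -0.39 after splines. VDAC1, the main channel of that membrane, was at -0.44 (-0.47 to -0.40) and has 19.5% of its sampled stretches in common with other genes. After lowess VDAC1 was at -0.24 and after splines at -0.29.

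Among genes that act on the members' proteins, 1 of 23 measured genes was higher, 1 was lower and the median was 0.04. HUWE1, a ubiquitin ligase that marks MCL1 for degradation, was 1.64-fold higher (1.62 to 1.67), from 45265 counts with doxorubicin and 17653 untreated. Its transcript of 14739 bases is long, and its log2 ratio was 0.30 after lowess and -0.01 after splines. DYNLL1, a dynein light chain that holds BIM, was 1.75-fold lower (1.67 to 1.83), with a transcript of 814 bases, and was at -0.17 after lowess. YWHAE, a 14-3-3 protein, was at -0.26 (-0.28 to -0.24), and at -0.13 after lowess and -0.10 after splines.

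Transcription factors known to act on members had 2 of 17 measured genes higher and 1 lower, with a median log2 ratio of 0.28 and a median transcript length of 4301 bases. REL, an NF-kappaB subunit, was 2.22-fold higher (2.00 to 2.46), from 1704 counts with doxorubicin and 493 untreated, and has 50.3% of its sampled stretches in common with other genes. REL remained past the limit, at a log2 ratio of 0.77 after lowess and 0.93 after splines. STAT5A, which relays cytokine signals to survival genes, was 1.61-fold higher (1.54 to 1.68) and was at a log2 ratio of 0.57 after lowess and 0.43 after splines. CEBPB, a leucine zipper factor of stress and inflammatory responses, was 2.39-fold lower (2.29 to 2.50), and remained past the limit at -1.06 after lowess and -0.94 after splines. MYC was at 0.37 (0.34 to 0.39) and ETS1 at 0.28 (0.25 to 0.31) before adjustment. After lowess MYC was at 0.47 and ETS1 at 0.10, and after splines they were at 0.32 and 0.13. The medians of the 4 lists after splines were -0.11, -0.02, -0.07 and 0.11 in the order given, against -0.01 over all genes.

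**Figure D5:**
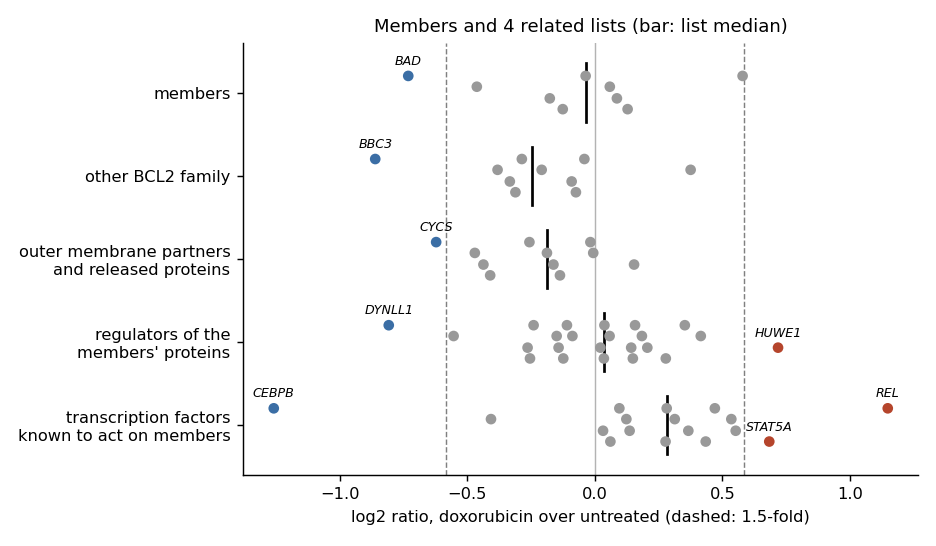
Log2 ratio of doxorubicin over untreated for the measured members and for 4 lists of related genes; bars are list medians, dashed lines the 1.5-fold limit, and named genes passed the size rule as higher (red) or lower (blue). The transcription factors have a median of 0.28 and the other BCL2 family genes one of -0.25.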

How the data were processed

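Raw read counts per gene symbol were deposited by the authors for 1 doxorubicin and 1 untreated library. Per the submitters' processing notes, HISAT2, featureCounts and the build hg19 were used. Versions, annotation and strand setting: not given in the sources used here. Counts were scaled by TMM in edgeR 4.0.16 (R 4.3.3), log2 ratios were formed after adding 0.5 to each count, and Clopper-Pearson 95% intervals were taken from the binomial split of the 2 counts. The reads carry no molecular identifiers and are not independent molecules, so intervals cover counting error only. Intervals of ratios between members used a normal approximation on the log scale. The size rule asked for 1.5-fold with an interval that excludes 1. Lengths, overlaps and shared 50-base stretches, sampled every 25 bases, came from GENCODE 29, on another build than the counts, and so no coordinates are given. Its longest RefSeq-paired transcript was used, and 98.2% of measured genes matched. Lowess used a span of 0.3. The procedure was tested on simulated data. Members and lists were chosen with earlier results of these data known. From each list up to 3 higher, up to 3 lower and the 2 most counted genes are named, and always BAX, BBC3 and PMAIP1. Size factors of DESeq2 1.42.0, total counts, upper quartiles, other limits and other lengths were alternatives.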

Additional observations from a re-analysis of the deposited data

How the results depend on the processing

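DESeq2 size factors, upper-quartile factors, 5 added counts and a 99% interval left 0 members higher and 1 lower. Total counts gave 1 member (BCL2L11) and 5 other pathway genes higher. A lower limit of 0.32 on the log2 scale gave 1 member higher and 2 lower (BAD and BCL2A1), 11 other pathway genes higher and 11 lower, and 2294 and 2416 of all measured genes; a 2-fold limit gave 0 members lower, 1 other pathway gene higher and 1 lower, and 128 and 175 of all. Count minimums of 20 and 1 each gave 5 other pathway genes higher, against 3 at 100, while 1002 and 1079 of all genes were higher, against 816. Lowess gave 0 members lower, 1 other pathway gene higher, and 539 higher and 515 lower of all; splines gave 0 members lower, 1 other pathway gene higher and 1 lower, and 448 and 395 of all, so that 53.1% of calls were higher. The cause of the length trend was not tested. The survival share was 71.8% with doxorubicin and 76.5% untreated with median transcript lengths, and 66.9% with doxorubicin and 72.2% untreated with coding lengths. BCL2, MCL1, BCL2A1 and BIK changed sign under both length adjustments and BMF under total counts; none of these 5 was called at the 1.5-fold limit. BCL2L1, BCL2L11, BAK1, BID and BAD kept their sign under all alternatives run, but not always outside counting error. The interval included 0 for BAK1 before adjustment, for BAD after splines, and for BID after lowess (-0.12 to 0.03) and splines (-0.12 to 0.03). No paired analysis was possible because each condition has 1 library. Depth limits BIK and BCL2A1 most, the members with the fewest counts and the widest intervals.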

Other observations

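Of the other BCL2 family genes, 7 stayed below the count minimum in these H9 libraries, and they were named after their values were seen. BCL2L14 had 25 counts with doxorubicin and 6 untreated, HRK 23 with doxorubicin and 14 untreated, and BOK, an effector related to BAX, 4 with doxorubicin and 0 untreated. BCL2L2, which encodes BCL-W, had 23 counts with doxorubicin and 18 untreated, so that this survival gene was at 0.124 CPM per kilobase with doxorubicin and 0.152 untreated, far below BCL2L1. BCL2L10 had 0 counts with doxorubicin and 2 untreated, BCL2L15 had 39 with doxorubicin and 31 untreated, and BNIPL had 28 with doxorubicin and 27 untreated. TRIM17, a ubiquitin ligase that acts on MCL1, had 17 counts with doxorubicin and 3 untreated, and its counting interval on the log2 scale ran from 0.07 to 4.27.

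Among the 10 measured genes of that list, BECN1, the autophagy protein with a BH3 motif, was the only one with an unadjusted log2 ratio above 0, at 0.38 (0.30 to 0.45), from 3926 counts with doxorubicin and 1941 untreated. It was at 0.53 after lowess and 0.42 after splines, and 17.1% of its exons are overlapped by the coding genes CNTD1 and PSME3. The voltage-dependent channels VDAC2 and VDAC3 were at -0.26 and -0.41, and at -0.02 and -0.07 after splines. FIS1, with a transcript of 734 bases, was at -0.19 and had an adjusted log2 ratio of 0.49 after lowess and 0.41 after splines.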
